A study of Mus musculus with 2 samples.

Results

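The genes described here encode extracellular antagonists of bone morphogenetic proteins (BMPs) and activins: Grem1, Fst, Fstl1, Fstl3, Nog, Chrd, Bambi and Twsg1. The 8 members were taken by symbol from a table of 34295 genes, and each stood on a single row. Poly(A) RNA had been sequenced from 2 kinds of C57BL/6J wild-type mouse cells, with 1 library each. The fibroblast library came from 100000 embryonic fibroblasts of embryos of day 13.5 to 14.4, grown in DMEM with 10% serum, sorted to remove cells carrying CD45, CD11b or F4/80 and used at passage 4 to 7. The macrophage library came from 750000 bone marrow derived macrophages, lifted on day 6 of culture in RPMI with 10% serum and 30% medium conditioned by L929 cells, a mouse fibroblast line. Neither culture received a further treatment per the labels, and pooling of animals is not given in the sources used here. Growth factors and their receptors were what the series set out to compare.

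BMPs and activins are secreted dimers of the TGF-beta superfamily that bring together type I and type II receptor kinases, which then phosphorylate SMAD proteins that enter the nucleus. Antagonists such as noggin, chordin, gremlin and follistatin bind the dimers outside the cell and keep them from their receptors. In embryonic connective tissue they shape the limb, skeleton and joints, and several of them are themselves induced by the signal they block. The name of the group fits 7 of the members: Bambi encodes a membrane protein, a receptor-like decoy that lacks a kinase, and is not secreted.

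Values are transcripts per 1000000 (TPM), which take account of transcript length, so that levels of different genes can be set side by side within a library. The size rule calls a gene higher on one side if its TPM plus 1 exceeded the other library's by 4-fold or more, a log2 ratio of 2, and if it reached 5 TPM there. Log2 ratios are those of TPM plus 1, fibroblast over macrophage. They are pulled toward 0 for low genes, and folds in words are ratios of TPM. With 1 library per cell type there is no replicate check, no error and no test, and cell type cannot be told apart from medium, cell number and preparation. The depth of the libraries is unknown, since TPM do not retain it, so no detection limit can be given, and a value of 0 is only the listed value.

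The libraries carried the markers of their labels. By the size rule, each of 20 fibroblast markers and each of 20 macrophage markers was higher on its own side. The genes of the sorted surface proteins, Ptprc, Itgam and Adgre1, stood at 0.352, 0.483 and 0.457 TPM in the fibroblast library and at 142, 303 and 399 TPM in the macrophage library. Among markers of other mesenchymal cells, 3 of 5 chondrocyte genes, 2 of 5 skeletal muscle genes and 1 of 5 osteoblast genes reached 1 TPM in fibroblasts, with summed levels of 41.6, 76.9 and 13.6 TPM against 0.349, 0.721 and 3.54 TPM in macrophages. Each fibroblast sum rested mostly on 1 gene: Comp at 30.1 TPM, Acta1 at 70.8 TPM and Runx2 at 13.1 TPM. For adipocyte genes, 3 of 5 reached 1 TPM in each library, and the sum was higher in macrophages, at 370.2 TPM against 148. Lpl alone made up 280 TPM of the macrophage sum, and Adipoq and Plin1 were below 1 TPM in both libraries. The muscle factor genes Myod1, Myog and Myf5 were listed at 0 in both libraries, and the osteoblast genes Bglap and Sp7 at 0 and 0.394 TPM in fibroblasts. In the macrophage library, 4 of 5 neutrophil genes reached 1 TPM, with a summed level of 430.0 TPM against 1.93 TPM in fibroblasts, while Ly6g was listed at 0 in both. S100a8 and S100a9 stood at 157 and 268 TPM in macrophages, Mpo and Elane at 2.83 and 2.34 TPM. Whether cells of these other types were present, and their part in the antagonist levels, was not tested. In these bulk libraries, fewer cells carrying a transcript and less of it in each cell cannot be told apart. The column sums were 999545 TPM in fibroblasts and 999609 TPM in macrophages.

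Start-site sequences from RefSeq (GRCm38.p6) were available for 5 of the 8 members: Grem1, Fstl1, Fstl3, Chrd and Twsg1. They are shown for 3 members that differed between the libraries and for Twsg1, which did not pass the size rule, so that the regions can be compared. Each runs 5′ to 3′ toward the start site and leaves out bases that GENCODE M21 places in an exon. Capitals mark GGCGCC, a motif known from BMP-responsive SMAD binding, and TATAAA or its reverse complement TTTATA, the TATA element.
Grem1, chr2:113758649-113758898, minus strand: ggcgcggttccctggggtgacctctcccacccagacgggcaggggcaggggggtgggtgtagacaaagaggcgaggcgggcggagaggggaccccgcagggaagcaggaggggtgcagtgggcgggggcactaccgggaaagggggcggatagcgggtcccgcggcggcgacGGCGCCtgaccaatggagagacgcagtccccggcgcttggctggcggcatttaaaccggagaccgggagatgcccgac
Chrd, chr16:20732877-20733126, plus strand: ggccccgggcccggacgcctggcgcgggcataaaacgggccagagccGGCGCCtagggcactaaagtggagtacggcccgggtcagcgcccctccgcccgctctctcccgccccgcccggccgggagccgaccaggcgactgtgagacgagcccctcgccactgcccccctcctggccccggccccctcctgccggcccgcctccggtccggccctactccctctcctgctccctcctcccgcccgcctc
Fstl3, chr10:79777024-79777271, plus strand: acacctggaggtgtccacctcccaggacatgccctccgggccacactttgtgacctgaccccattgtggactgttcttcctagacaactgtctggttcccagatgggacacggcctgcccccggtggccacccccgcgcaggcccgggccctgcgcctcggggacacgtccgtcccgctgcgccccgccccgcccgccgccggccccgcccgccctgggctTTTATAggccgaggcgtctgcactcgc
Twsg1, chr17:65951227-65951437, minus strand: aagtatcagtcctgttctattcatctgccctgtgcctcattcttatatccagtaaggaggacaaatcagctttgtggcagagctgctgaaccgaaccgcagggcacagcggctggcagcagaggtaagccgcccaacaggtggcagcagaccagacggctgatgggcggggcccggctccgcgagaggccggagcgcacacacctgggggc

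GGCGCC, which reads the same on both strands, occurred once in the 250 bases before the Grem1 start, with its first base 78 bases upstream, and once before Chrd, 203 bases upstream. Of 32851 promoters in the table, 9.59% held GGCGCC in those 250 bases. TATAAA, searched on both strands, occurred once before Fstl3, with its first base 29 bases upstream, against 12.4% of all promoters. The 250 bases before Fstl1 and Twsg1 held neither. TGANTCA, a motif of AP-1 factors, and GGAATG, a motif of TEAD factors, occurred in none of the 5 regions and in 6.75% and 12.6% of all promoters. GTCT, the short SMAD box, was found 1 to 4 times in each of the 5, and 82.9% of all promoters held it. The E-box letters CANNTG occurred 3 times each before Fstl3 and Twsg1, not before Grem1, Chrd or Fstl1, and in 66.2% of all promoters. Over the full 250 bases all 5 regions were rich in G and C, from 64.4% before Twsg1 to 78.0% before Chrd. The median over all promoters was 52.4%. These shares and the motif counts keep bases that GENCODE M21 places in an exon. Outside such exons lay 68 of the 250 bases for Fstl1, 211 for Twsg1 and 248 for Fstl3. The share of G and C in those bases alone was not computed. These are matches of letters, and no binding was measured.

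Of the 8 antagonist genes, 6 were higher in the fibroblast library by the size rule, 0 were higher in the macrophage library and 2 passed in neither direction. Among all 13606 genes at 1 TPM or more in either library, 11.8% were higher in fibroblasts and 7.21% in macrophages. All 8 members reached 5 TPM in fibroblasts, and of the 11191 genes that did so in at least 1 library, 14.3% were called higher in fibroblasts and 8.77% in macrophages. The median log2 ratio of the members was 4.06, against 0.28 over the detected genes. It was 6.30 with 0.1 and 2.29 with 5 added to the TPM in place of 1. The 6 were Fstl1, Grem1, Fst, Fstl3, Chrd and Nog, and the remaining members were Twsg1 and Bambi. All 8 values were higher in fibroblasts, but those of Twsg1 and Bambi by less than 4-fold. The 8363 genes that reached 5 TPM in both libraries lay, at the median, 0.18 higher in fibroblasts on the log2 scale of TPM, and the log2 ratios given are not corrected for that shift.

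**Figure D1:**
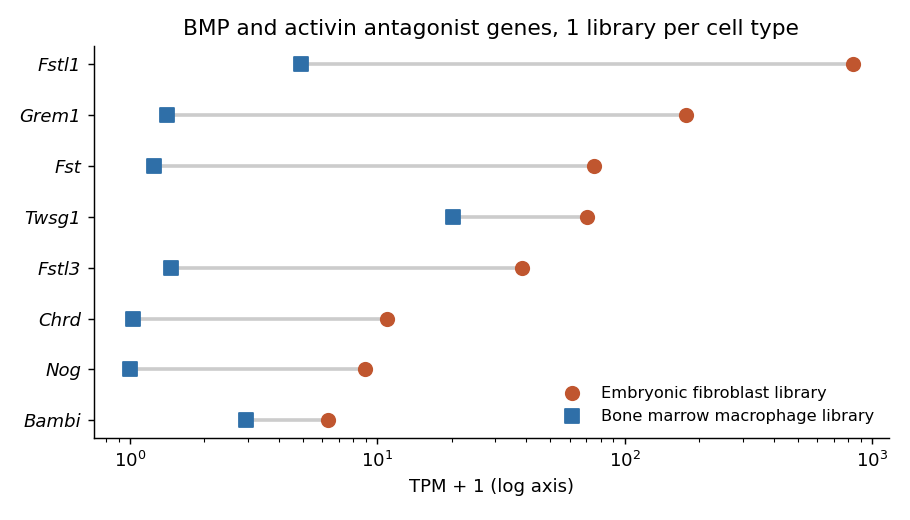
TPM plus 1 on a log axis for each antagonist gene in the fibroblast library (circles) and the macrophage library (squares), 1 library per cell type, ordered by fibroblast level. Grey lines join the libraries: they are long for Fstl1, Grem1, Fst, Fstl3, Chrd and Nog and short for Twsg1, at 69.4 and 19.2 TPM, and Bambi, at 5.31 and 1.94 TPM.

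The order of levels in fibroblasts was Fstl1, Grem1, Fst, Twsg1, Fstl3, Chrd, Nog and Bambi. Fstl1 held 68.7% of the members' summed 1213 TPM, and Grem1 14.5%. Neighbours in this order lay 4.74-fold apart for Fstl1 and Grem1 and 3.74-fold for Fstl3 and Chrd. Fst and Twsg1 lay 1.07-fold apart, Chrd and Nog 1.25-fold, and without replicates no spread exists against which to read these steps. In macrophages the order was another one: Twsg1 stood first with 73.3% of a summed 26.2 TPM, followed by Fstl1 with 14.9% and Bambi with 7.40%. The other members were below 1 TPM there.

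Gremlin 1, of the DAN family, binds BMP2, BMP4 and BMP7 as a dimer and is known from limb outgrowth, where it keeps the signalling loop between mesenchyme and ectoderm running. Grem1 stood at 176 TPM in the fibroblast and 0.409 TPM in the macrophage library. The fold of 430.0 was the largest among the 7 members with a value above 0 in macrophages, and the log2 ratio was 6.97. Grem1 was above 92.7% of the genes at 1 TPM or more in fibroblasts. The gene (ENSMUSG00000074934) lies at chr2:113746164-113758646 on the minus strand (GRCm38, GENCODE M21, as for the positions that follow), with 1 annotated transcript of 2 exons and 4148 bases. Its flanking gene Fmn1, whose region is known to hold Grem1 limb enhancers, stood at 16.0 TPM in the fibroblast and 13.2 TPM in the macrophage library, and Scg5 on the other side at 0.767 and 0 TPM. Neither neighbour passed the size rule.

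Noggin and chordin are classical BMP antagonists of the dorsal organizer, and both were low in fibroblasts. Nog stood at 7.96 TPM in fibroblasts against a listed 0 in macrophages, with a log2 ratio of 3.16. It is a gene of 1 exon (ENSMUSG00000048616) at chr11:89300638-89302332 on the minus strand. Chrd stood at 9.98 TPM in the fibroblast and 0.0300 TPM in the macrophage library, with a log2 ratio of 3.41. Chrd (ENSMUSG00000006958) lies at chr16:20733127-20742384 on the plus strand and has 10 annotated transcripts, 3 of them coding. It overlaps Thpo, the thrombopoietin gene on the opposite strand, at 1.32 TPM in fibroblasts against a listed 0, and since use of strand in the authors' quantification is not given, reads of the shared stretch may be divided uncertainly. Neither gene passed the size rule with a pseudocount of 5 TPM, where the log2 ratio of Nog was 1.37 and that of Chrd 1.57, and with a minimum of 10 TPM. Nog and Chrd together made up 1.48% of the members' sum in fibroblasts, where Grem1 alone made up 14.5%.

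Twisted gastrulation binds both BMPs and chordin, and it can block or release BMP depending on whether chordin is cut. Twsg1 stood at 69.4 TPM in the fibroblast and 19.2 TPM in the macrophage library, or 3.61-fold apart, with a log2 ratio of 1.80, just under the limit of 2. It was the one member above 5 TPM in macrophages, where it lay above 48.2% of the genes at 1 TPM or more. Twsg1 (ENSMUSG00000024098) lies at chr17:65921972-65951226 on the minus strand, and its neighbour Ankrd12 stood at 16.6 and 12.3 TPM in fibroblasts and macrophages. Its partner Chrd was near 0 in macrophages, so both genes of the pair reached 5 TPM in the fibroblast library and 1 of them in the macrophage library.

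The follistatin group binds activins and related ligands. Follistatin itself, encoded by Fst, wraps around activin and blocks both receptor sites. Fst stood at 74.4 TPM in the fibroblast and 0.257 TPM in the macrophage library, 290-fold apart, with a log2 ratio of 5.91. Fstl3, whose product is a shorter activin and myostatin binder, stood at 37.3 TPM against 0.467, 79.9-fold apart, with a log2 ratio of 4.71. Of the 5 members past the size rule for which a fold can be given, Fstl3 had the smallest. Fst (ENSMUSG00000021765) lies at chr13:114452290-114458951 on the minus strand, with 4 coding transcripts, whose shares the gene-level table does not give, and overlaps the antisense gene Gm47040, not analysed here. Fstl3 (ENSMUSG00000020325) lies at chr10:79777272-79782630 on the plus strand and overlaps Prss57 on the opposite strand, which was at 0.0616 TPM in fibroblasts against a listed 0. Its neighbour Palm, on the same strand 10942 bases away, passed the size rule too, at 45.1 TPM against 3.10, with a log2 ratio of 3.49.

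Follistatin-like 1 shares a follistatin-type domain but is a more distant secreted glycoprotein, abundant in mesenchyme, for which BMP4 binding and other roles have been described. Fstl1 stood at 833 TPM in the fibroblast and 3.90 TPM in the macrophage library, 214-fold apart, with a log2 ratio of 7.41. This was the largest log2 ratio of the members with 1 added to the TPM, while with 0.1 added it was 7.70, below the 8.43 of Grem1. It ranked 199 among all genes of the fibroblast library, above 98.4% of those at 1 TPM or more. Fstl1 (ENSMUSG00000022816) lies at chr16:37776873-37836514 on the plus strand, with 1 coding transcript of 11 exons among 6 annotated.

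Bambi, the membrane decoy, was the lowest member in fibroblasts, at 5.31 TPM against 1.94 TPM in macrophages. The difference was 2.73-fold, with a log2 ratio of 1.10, and did not pass the rule. Bambi (ENSMUSG00000024232) lies at chr18:3507923-3516404 on the plus strand. With Twsg1 it formed the pair whose macrophage level was a sizeable part of the fibroblast level, 36.6% for Bambi and 27.7% for Twsg1.

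**Figure D2:**
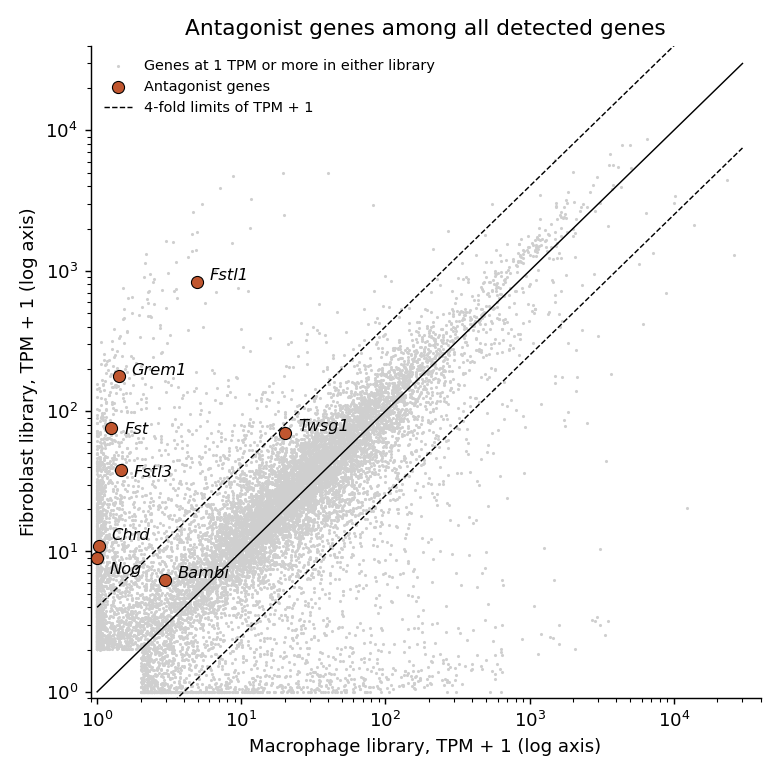
TPM plus 1 in the fibroblast library against the macrophage library, both on log axes, for genes at 1 TPM or more in either library (grey) and the 8 antagonist genes (orange), with the line of equal values and dashed 4-fold limits. Fstl1, Grem1, Fst, Fstl3, Chrd and Nog lie above the upper limit at the left edge, and Twsg1 (log2 ratio 1.80) and Bambi (1.10) lie between the limits.

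For the other members the macrophage level was a small share of the fibroblast level, and it was set beside that of fibroblast markers at 100 TPM or more. These 18 markers appeared in the macrophage library at 0.0896% to 0.880% of their fibroblast level, with a median of 0.174%. Col1a1, Col1a2 and Col3a1, the main fibrillar collagen genes, were at 0.139%, 0.192% and 0.0896%. Grem1 stood at 0.233%, Chrd at 0.301%, Fst at 0.345% and Fstl1 at 0.468%, all within the range of the markers. Fstl3, at 1.25%, was above all 18. The marker median would give 1.45 TPM of Fstl1 and 0.305 TPM of Grem1 in macrophages, against 3.90 and 0.409 TPM measured. For Twsg1 it would give 0.121 TPM against 19.2 measured, and for Bambi 0.00922 against 1.94. The part of fibroblast transcripts in the low macrophage values was not tested beyond this.

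**Figure D3:**
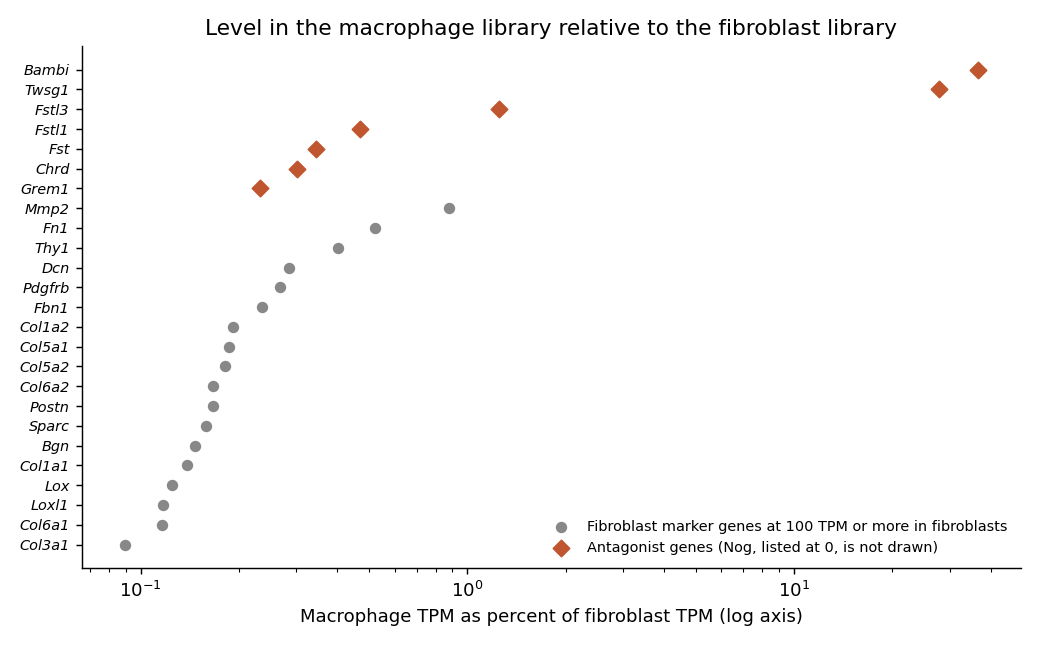
Macrophage TPM as a percentage of fibroblast TPM, on a log axis, for 18 fibroblast markers at 100 TPM or more in fibroblasts (grey circles) and 7 antagonist genes (orange diamonds). Grem1, Chrd, Fst and Fstl1 lie within the marker range of 0.0896% to 0.880%, Fstl3 lies above it at 1.25%, and Twsg1 and Bambi lie far above, at 27.7% and 36.6%.

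Beyond the 8 members, 22 further genes of extracellular or membrane modulators were listed. Of these, 11 were detected at 1 TPM or more. By the rule 6 passed toward fibroblasts and 0 toward macrophages, against 11.8% and 7.21% of all detected genes. The median log2 ratio of the list was 3.63. The highest were Smoc2, encoding a matricellular calcium-binding protein, at 208 TPM against 0.280, and Nbl1, encoding the DAN antagonist, at 188 against 0.399. Crim1, a membrane-anchored BMP binder, stood at 78.9 TPM against 2.30. The sclerostin gene Sost was listed at 0 in both libraries.

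The ligands that these proteins bind were concentrated in a few genes. Gdf11 and Gdf1 were listed with the activin-type genes, not with the BMP and GDF genes. In the latter list, Bmp4, a principal gremlin and noggin ligand, alone passed the size rule toward fibroblasts, at 126 TPM against a listed 0. Gdf6, Bmp6 and Gdf10, at 4.66, 2.68 and 2.15 TPM against a listed 0, did not reach its minimum of 5 TPM. Gdf3, which encodes a ligand related to nodal, passed toward macrophages, at 11.2 TPM there and 0.0463 in fibroblasts. Of 17 BMP and GDF genes 5 were detected, and 3 of 8 activin-type genes found among the deposited symbols were, all past the rule toward fibroblasts. Of all detected genes, 11.8% were called higher in fibroblasts and 7.21% in macrophages. Inhba, which encodes the subunit of activin A, stood at 182 TPM against 0.813, Inhbb at 22.7 against a listed 0 and Gdf11 at 10.1 against 0.072. Bmp4 and Inhba were higher in the same library as Grem1 and Fst.

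Within the fibroblast library, Grem1 was at 1.40 times the level of Bmp4, and Fst at 0.409 times the level of Inhba. Fst and Fstl3 together reached 112 TPM against 205 TPM of Inhba and Inhbb, a ratio of 0.546. Over the 7 ligand-binding members, without Bambi, the summed level was 1208 TPM in fibroblasts against 355 TPM of the 25 BMP, GDF and activin-type ligand genes, a ratio of 3.40. In macrophages the sums were 24.3 and 13.2 TPM, a ratio of 1.84. The order of the libraries turned without Fstl1, with ratios of 1.05 in fibroblasts and 1.54 in macrophages. The macrophage ratio rested on Twsg1 above and Gdf3 below the line. These are ratios of transcripts, and proteins were not measured.

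Bmpr1a and Tgfbr1 were the receptor kinase genes past the size rule, in opposite directions. Of 6 detected type I receptor genes, 4 passed in neither direction and 1 in each, and the median log2 ratio was 0.42. Bmpr1a, a main BMP type I receptor gene, stood at 59.3 TPM in fibroblasts against 0.956, and Tgfbr1, the TGF-beta type I receptor gene, at 65.8 TPM in macrophages against 12.4. The 3 detected type II genes passed in neither direction, with a median of 0.85. Over all detected genes 81.0% passed in neither direction, so these receptor counts are near the background. The highest were Tgfbr2, the TGF-beta type II receptor gene, at 97.8 TPM in fibroblasts against 53.8, and Bmpr2, the BMP type II receptor gene, at 16.2 against 9.54. Acvr2a, the remaining detected type II gene, stood at 13.8 TPM against 2.79. Its log2 ratio of 1.97 was just under the limit. Of 5 detected co-receptor genes 3 passed toward fibroblasts and 0 toward macrophages, against 11.8% and 7.21% of all detected genes. The median of the co-receptor genes was 3.33. The 3 were Neo1, the receptor gene of repulsive guidance molecules, at 53.7 TPM against 2.50, the betaglycan gene Tgfbr3 at 22.7 against 0.174, and the BMP co-receptor gene Rgma at 9.04 against a listed 0.

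**Figure D4:**
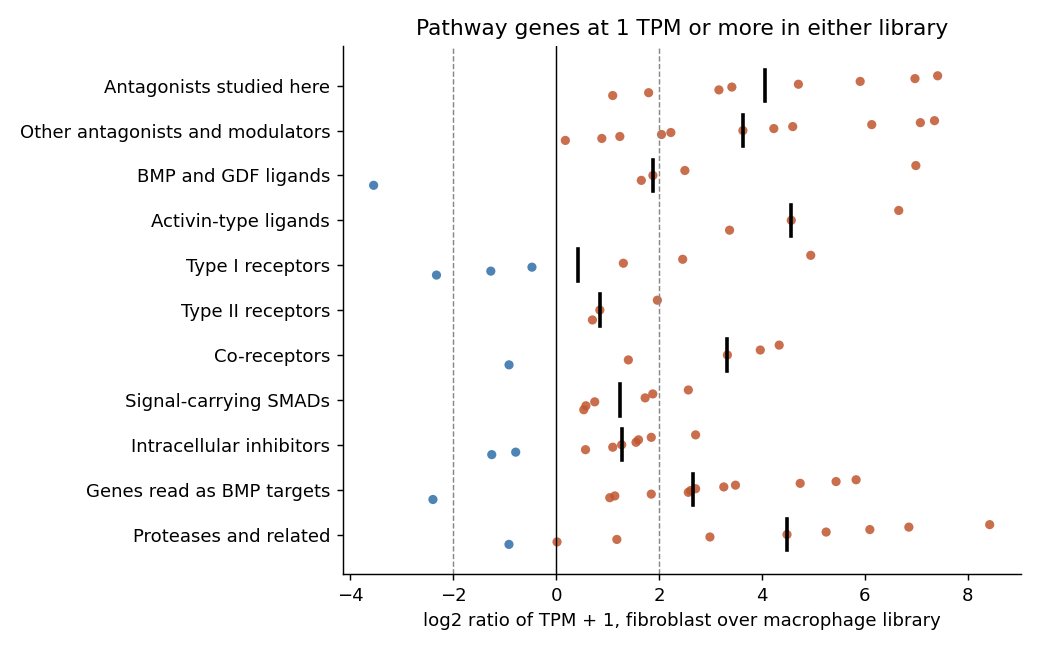
Log2 ratio of TPM plus 1, fibroblast over macrophage library, for each gene of the pathway lists at 1 TPM or more in either library. Points are genes, black bars are list medians and dashed lines mark the 4-fold limits. The antagonists have a median of 4.06, the type I and type II receptors medians of 0.42 and 0.85.

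Inside the cell, 1 of 6 signal-carrying SMAD genes passed, toward fibroblasts, and the median was 1.24. It was Smad9, encoding a BMP-pathway SMAD, at 5.25 TPM against 0.0541. Of 9 genes of intracellular inhibitors in the table, 1 passed toward fibroblasts, and the median was 1.27. It was Smad6, encoding an inhibitory SMAD that BMP induces, at 37.8 TPM against 4.92. Both counts lie near the 11.8% of all detected genes called higher in fibroblasts and are no result about these lists.

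Of 12 genes commonly read as BMP targets, 8 passed the rule toward fibroblasts and 1 toward macrophages, and the median was 2.66. Of all detected genes, 11.8% were called higher in fibroblasts and 7.21% in macrophages. Smad6 and Smad9, counted above in other lists, are among the 8. Id3, encoding an inhibitor of helix-loop-helix factors, stood at 511 TPM against 44.8, and its relative Id2 in the opposite order, at 95.9 TPM in fibroblasts against 507 in macrophages. Id1, at 221 TPM in fibroblasts against 107 in macrophages, had a log2 ratio of 1.04 and passed in neither direction. Atoh8 and Msx1, which encode developmental transcription factors, stood at 55.8 and 42.4 TPM in fibroblasts against a listed 0 in macrophages. Smad6 was the fourth highest of those higher in fibroblasts. Such genes answer to other pathways too, and no SMAD phosphorylation was measured.

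Proteases that act on the antagonists and ligands were also listed. Of 10 such genes and their relatives, 9 were detected, and the median was 4.49. By the rule 6 passed toward fibroblasts and 0 toward macrophages, against 11.8% and 7.21% of all detected genes. Bmp1, encoding a tolloid-family protease that cuts chordin, stood at 99.4 TPM against 0.469. With the related Tll1, it came to 121 TPM in fibroblasts, 12.1 times the level of Chrd. In macrophages the same ratio was 16.3, from 0.489 TPM against 0.0300, both near 0. Pcolce, encoding an enhancer of procollagen cleavage by the same protease, was highest at 835 TPM against 1.44. Htra1, a secreted serine protease gene, stood at 152 against 0.321, and Pcsk6, encoding a proprotein convertase, at 36.9 against a listed 0. The convertase genes Furin and Pcsk7 passed in neither direction, at 68.0 and 25.4 TPM in fibroblasts against 129 and 25.0 in macrophages.

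For each member past the size rule, the protein-coding genes with the most similar pair of values were found by distance in log2(TPM + 1) over the 2 libraries. Nearest to Grem1 were Phldb2, at 176 TPM against 0.410, and Sdc2, a heparan sulfate proteoglycan gene, at 177 against 0.414. Nearest to Fst were Npr2 at 73.6 against 0.243 and the adhesion gene Vcam1 at 71.4 against 0.234. Fstl1 had no gene within a distance of 0.49, and its nearest were Serpinf1 at 994 TPM against 5.56 and Il1rl1 at 743 against 2.53. For Fstl3 they were Nectin3 and Ctxn1, for Chrd Gpr149 and Arsj, and for Nog Nkain4 and Adh7, with distances between 0.011 and 0.029. With a pair of libraries such likeness is a match of 2 levels only: 40 protein-coding genes lay within 0.1 of Nog and 32 within 0.1 of Chrd, against 4 for Grem1.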

How the data were processed

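Per the labels, stranded poly(A) libraries were sequenced in paired reads of 76 bases. The submitters' processing notes name kallisto 0.43.1 and the build GRCm38. How transcripts were chosen, joined into genes and filtered is not given in the sources used here. A single table of 34456 rows named no unit, and its values were taken as TPM deposited by the authors, from their range and their sums of 999545 and 999609. Rows sharing a symbol were added, and 28 rows with date-like names were kept apart by description, which gave 34295 genes. Of these, 32189 matched GENCODE M21 (GRCm38), the source of coordinates. Promoters and their motifs came from RefSeq (GRCm38.p6).

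Genes were called by size (4-fold in TPM plus 1, at least 5 TPM), with no test. Detected means 1 TPM or more in either library. The members, lists and alternatives were chosen with earlier results of these data known. Named genes are the 8 members, the 3 sort genes, Col1a1, Col1a2 and Col3a1, in each pathway list up to 4 per direction past the rule with the highest TPM, or up to 2 where none passed, and the 2 nearest genes of each member past the rule. Some genes that this rule takes are not reported here. Marker genes named for other cell types, neighbouring genes, Sost, Gdf6, Bmp6, Gdf10, Id1 and Tll1 were chosen after their values were seen. So were Acvr2a, Furin, Pcsk7 and the sums within a library other than that of all ligands. A planned comparison of protein sequences was not run. The size rule was tested on simulated data for this comparison: with noise of SD 0.2 (log2) over 34295 genes, it recovered 200 of 200 genes changed 8-fold and called 0 of 34095 unchanged ones. The changed genes were drawn only from those whose geometric mean over the libraries was at least 10 TPM. Of the members called, only Fstl1 reaches that level, so the simulation does not bear on the other calls. With a change well past 4-fold and so small a noise, it could hardly have come out otherwise. That noise was set without replicates to draw it from. Alternatives were other pseudocounts (0.1, 5), minimums (1, 10 or none), a threshold of 2-fold, scaling by the median of ratios, totals that leave out mitochondrial genes and the top 50 of each library, 1 row per symbol, and subtraction of the median share of the other cell type's markers. Python 3.11.15, pandas 2.3.3 and numpy 2.4.6 were used.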

Additional observations from a re-analysis of the deposited data

How the results depend on the processing

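The count of antagonist genes higher in fibroblasts was 6 as reported and stayed between 4 and 8 under the alternatives, and 0 were higher in macrophages under each of them. Of 80 combinations of a member and an alternative, 74 left the call as it was and 0 turned the direction. Many of these could not have changed. A pseudocount, a minimum, a threshold or 1 row per symbol cannot turn the direction of a member that stands on a single row. For such members 1 row per symbol could change no call, nor could a minimum of 1 TPM or none. Nog and Chrd lost the call with a pseudocount of 5 TPM or a minimum of 10 TPM, and Twsg1 and Bambi gained it with a 2-fold threshold. The median log2 ratio of the members was 6.30 with a pseudocount of 0.1 and 2.29 with one of 5, 3.96 under median-of-ratios scaling, 4.30 after rescaling without mitochondrial and highest genes, and 4.11 with the other cell type's share subtracted. With that subtraction the antagonist to ligand ratio was 3.40 in fibroblasts and 1.72 in macrophages. On the values as reported, without subtraction, leaving out Fstl1 gave ratios of 1.05 and 1.54. Of 66 detected genes of the pathway lists, 28 were higher in fibroblasts and 3 in macrophages, against 11.8% and 7.21% of all detected genes. With a 2-fold threshold the counts were 40 and 5, and with a pseudocount of 5 they were 21 and 2. The shares of all detected genes under the alternatives were not computed. These counts, and those of the members under the alternatives, therefore have no like background. No paired analysis was possible because each cell type has 1 library and the result comes from no test. Without counts, what depth limits cannot be computed. Over all settings the log2 ratio of Nog ranged from 1.37 to 6.33 and that of Chrd from 1.57 to 6.28, against 6.56 to 7.92 for Fstl1.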
